A study of Mus musculus with 10 samples.

Results

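Acetylated histone H4 (H4Ac) was called in 6388 genomic regions in fibroblasts that carried MyoD and at no overlapping place in fibroblasts that carried Myf5 or green fluorescent protein (GFP). These MyoD-only regions were chosen by the deposited H4Ac peak calls: the 3 H4Ac peak lists were joined, peaks that shared at least 1 bp were merged, and each merged region was labelled by the lists in it. Of 45627 merged regions, the 6388 MyoD-only regions were 14.0%. Each consisted of a single peak of the MyoD-cell H4Ac list. Because the H4Ac calls chose these regions, their H4Ac coverage, width and GC content are given as descriptions without a test. The MyoD and Myf5 peaks were not used in the choice and are the measurements compared here.

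The cells were mouse embryonic fibroblasts null for both MyoD and Myf5 (MyoD-/-; Myf5-/-), a genotype shared by every group, and each population received a lentivirus with MyoD, with Myf5 or with GFP as the control. The medium was changed at 12 h, and differentiation medium was given 24 h after infection and kept for 20 h before collection. MyoD chromatin immunoprecipitation (ChIP) was made from cells with MyoD and Myf5 ChIP from cells with Myf5, after 11 min of fixation. H4Ac ChIP was made from native chromatin of all 3 populations, digested for 18 min by 15 units of micrococcal nuclease, and mock ChIP with each factor antibody was made from cells with GFP. All factor came from the virus, in cells that are not muscle precursors, so the occupancy is that of an introduced protein.

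MyoD and Myf5 are related basic helix-loop-helix proteins that bind E-box sequences and direct cells to the skeletal muscle lineage. MyoD recruits histone acetyltransferases, among them p300 and PCAF, to the sites it binds, and acetylation of the histone H4 tail is a mark of open, active chromatin. Micrococcal nuclease cuts between nucleosomes, so native ChIP reports the nucleosomes themselves and not the DNA that a factor occupies between them.

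Each group was represented by 1 peak list, so there is no replicate error and no p-value. The MyoD and Myf5 lists each cover 2 replicates according to their titles. Read depth is unknown from these lists, and the H4Ac list of cells with MyoD used lower coverage cutoffs (19 to 26 reads) than those of cells with Myf5 (20 to 31) and GFP (21 to 30). Intervals in parentheses are 95% intervals. They cover counting error only, and regions of a list share their libraries and are not replicates of a condition. All coordinates are those of build mm9.

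The MyoD-only regions were mostly weak, narrow H4Ac peaks. Their maximum H4Ac coverage ran from 19 to 93 reads with a median of 24, against a median of 32 in the other 30476 H4Ac peaks of the same cells. Divided by the authors' cutoff for the GC content of the peak, their coverage had a median of 1.1 and a highest value of 4.14, against a median of 1.5 in the other peaks. The upper 10% reached 1.41 times the cutoff or more. The median width was 170 bp (15 to 941 bp), against 297 bp for the other peaks. Together they spanned 1.26 Mb of the 12.1 Mb covered by the H4Ac list of cells with MyoD, which is 10.4% of its length and 17.3% of its peaks. The control coverage given with each peak had a median of 4 reads in both sets. In 4 MyoD-only regions the authors' control p-value was 1e-05 or lower.

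Many of these regions lay at the limit of calling. In 1417 of them (22.2%) the coverage equalled the cutoff exactly. The cutoffs of cells with MyoD were 19, 21, 22, 24 and 26 reads from the lowest to the highest GC bin, against 20, 24, 27, 29 and 31 in cells with Myf5 and 21, 24, 26, 28 and 30 in cells with GFP. In all, 3382 MyoD-only regions (52.9%) had a coverage under the cutoffs of both other lists for their GC bin, 440 were under 1 of them, and 2566 (40.2%) reached both. At the edge of the overlap rule, the 447 MyoD-only regions within 50 bp of an H4Ac peak of the other populations had a median of 1.09 times the cutoff and a median width of 159 bp. The 211 H4Ac peaks of cells with MyoD that missed the choice by sharing 1 to 50 bp with such a peak had medians of 1.05 times and 154 bp.

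The distribution over GC content was intermediate. Of the MyoD-only regions, 16.7% lay in the bin of at most 40% GC, 36.1% in that of 40 to 45%, 34.4% in that of 45 to 50%, 11.3% in that of 50 to 55% and 1.53% above. Myf5-only regions were poorer in GC, with 39.6% in the lowest bin and 17.6% in the bin of 45 to 50%. GFP-only regions had 19.0% and 33.1% in those bins, and regions called in all 3 populations 11.2% and 39.4%. The cutoffs of cells with MyoD and with Myf5 were closest in the lowest bin, at 19 and 20 reads. In the bin of 45 to 50% they were 22 and 27. How far the GC contrast goes with these cutoffs was not tested.

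By an overlap of at least 1 bp, MyoD-only regions lay at MyoD peaks more often than H4Ac regions of any other class. A MyoD peak overlapped 2615 of 6388 (40.9%, 39.7 to 42.2), against 28.8% of all merged regions. The share was larger than that of Myf5-only regions by 27.1 percentage points (25.6 to 28.6), of GFP-only regions by 23.2 points (21.5 to 24.8), and of regions called in all 3 populations by 8.59 points (7.21 to 9.97). Regions that had H4Ac in both factor populations but not with GFP came closest, 5.75 points lower (3.81 to 7.69). All these differences depended on how overlap was counted. With the centre of the MyoD peak inside the H4Ac region, the share of MyoD-only regions was 8.52%, 5.18 points above Myf5-only regions (4.37 to 6.003) and 2.94 points above GFP-only regions (1.99 to 3.88). The difference from regions with both factors was then -3.32 points (-4.57 to -2.10), so the share of MyoD-only regions was the lower one. Among regions called in all 3 populations, 2931 of 18611 held the centre of their strongest MyoD peak, against 543 of 6388 MyoD-only regions. There too the MyoD-only share was the lower one. The regions called in all 3 populations had a median width of 565 bp. The regions with both factors were wider, with a median of 348 bp against 170 bp. In a window of 500 bp about each centre, which gives every region the same width, the share of MyoD-only regions was 8.73 points above theirs. Among regions of at least 125% of the cutoff, the difference was 44.5 points from Myf5-only regions and 39.2 from GFP-only regions. From regions with both factors it was 22.2 points. Those regions took their highest coverage over cutoff from both lists, and MyoD-only regions from a single peak.

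The excess over Myf5-only regions was present in regions of like GC content. The MyoD-only share was the higher one in each of the 5 GC bins, with 29.1% (26.4 to 32.0) against 9.46% (8.34 to 10.7) in the lowest bin and 44.0% (40.4 to 47.8) against 25.6% (20.7 to 30.9) in the bin of 50 to 55%. Above 55% GC it was 51.02% (40.7 to 61.3) against 36.4% (20.4 to 54.9), whose intervals overlap. With Myf5-only regions reweighted to the GC bins of MyoD-only regions, the difference was 24.1 points (22.4 at the lower limit). On each of 19 autosomes, 35.2% (chromosome 3) to 48.5% (chromosome 16) of MyoD-only regions were at a MyoD peak, above the share of all regions of that chromosome on 19 of 19. On the X chromosome the share was 34 of 114 (29.8%, 21.6 to 39.1), against 17.3% of all regions there.

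Myf5 peaks from cells with Myf5 also overlapped MyoD-only regions, although no H4Ac was called there in those cells. A Myf5 peak overlapped 3483 (54.5%, 53.3 to 55.8), against 46.3% of all merged regions. Myf5-only regions, which are the ones with H4Ac called in the Myf5-bearing cells alone, had a Myf5 peak in 1652 of 6265 (26.4%, 25.3 to 27.5). The share of MyoD-only regions was thus larger by 28.2 points (26.5 to 29.8) at the peaks of Myf5 itself, and by 4.33 points (3.35 to 5.32) with the Myf5 peak centre inside the region. Relative to regions called in all 3 populations, where 53.1% had a Myf5 peak, the difference was 1.46 points (0.041 to 2.87). The Myf5 list is longer than the MyoD list, with 93787 against 45015 peaks. Held to the length of the MyoD list by keeping its strongest peaks, it overlapped 44.7% of MyoD-only regions, and the difference from Myf5-only regions was 28.8 points.

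By factor pattern, 2563 MyoD-only regions (40.1%) had peaks of both factors, against 28.2% of all merged regions. A Myf5 and no MyoD peak was found at 920 (14.4%), against 18.1% of all, and a MyoD and no Myf5 peak at 52 (0.814%), against 0.585% of all. The remaining 2853 (44.7%, 43.4 to 45.9) had neither, against 53.1% of all merged regions and 72.8% of Myf5-only regions. Regions with both factors had a median H4Ac coverage of 1.14 times the cutoff and a median width of 186 bp. Regions with neither had 1.09 times and 159 bp, and regions with a Myf5 peak alone 1.09 times and 175 bp. Of the 410 MyoD-only regions at 1.5 times the cutoff or more, 315 had both factors and 56 had neither.

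Some MyoD-only regions without a MyoD peak lay close to one. Of the 3773 that overlapped none, 576 (15.3%, 14.1 to 16.5) had a MyoD peak within 500 bp, against 8.45% (7.72 to 9.22) of such Myf5-only regions and 10.1% (9.81 to 10.5) of all merged regions without a MyoD peak. Counted with those at a peak, 3191 MyoD-only regions (49.95%, 48.7 to 51.2) were within 500 bp of MyoD, against 36% of all merged regions. Within 5 kb were 66.5% (65.3 to 67.6), against 55.6% of all. Of the 920 regions with a Myf5 peak alone, 296 (32.2%) had a MyoD peak within 500 bp. Of the 2853 with neither factor, 280 (9.81%) did. A Myf5 peak was within 500 bp of 64.0% of MyoD-only regions (62.8 to 65.1), against 55.5% of all merged regions and 60.6% (59.9 to 61.3) of those called in all 3 populations.

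The share at a MyoD peak went up with H4Ac strength. It was 32.0% (30.4 to 33.6) of the 3247 MyoD-only regions under 1.1 times the cutoff, 41.0% of those from 1.1 times to 125% of the cutoff, 54.5% from there to 1.5 times, 74.1% (69.0 to 78.7) of the 328 from 1.5 to 2 times, and 77 of 82 (93.9%, 86.3 to 97.99) at 2 times or more. Between 1.5 times or more (78.0%, 73.7 to 82.0) and under 1.1 times (32.0%), the difference was 46.1 points (41.5 to 50.1), or 18.3 points (14.4 to 22.7) with the MyoD centre inside the region. Among Myf5-only regions the shares at a MyoD peak were 12.8% (11.6 to 14.1) under 1.1 times and 17.6% (13.1 to 22.8) from 1.5 to 2 times. Only 21 Myf5-only regions reached 2 times, 7 of them at a MyoD peak. Regions with both factors and not GFP also went up with H4Ac strength, at 21.3% (17.2 to 25.8) under 1.1 times and 71.3% (65.7 to 76.5) at 2 times or more. Whether the slopes of the classes differ was not tested. Of the MyoD-only regions at 2 times or more, 75 of 82 were at a Myf5 peak (91.5%, 83.2 to 96.5).

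**Figure D1:**
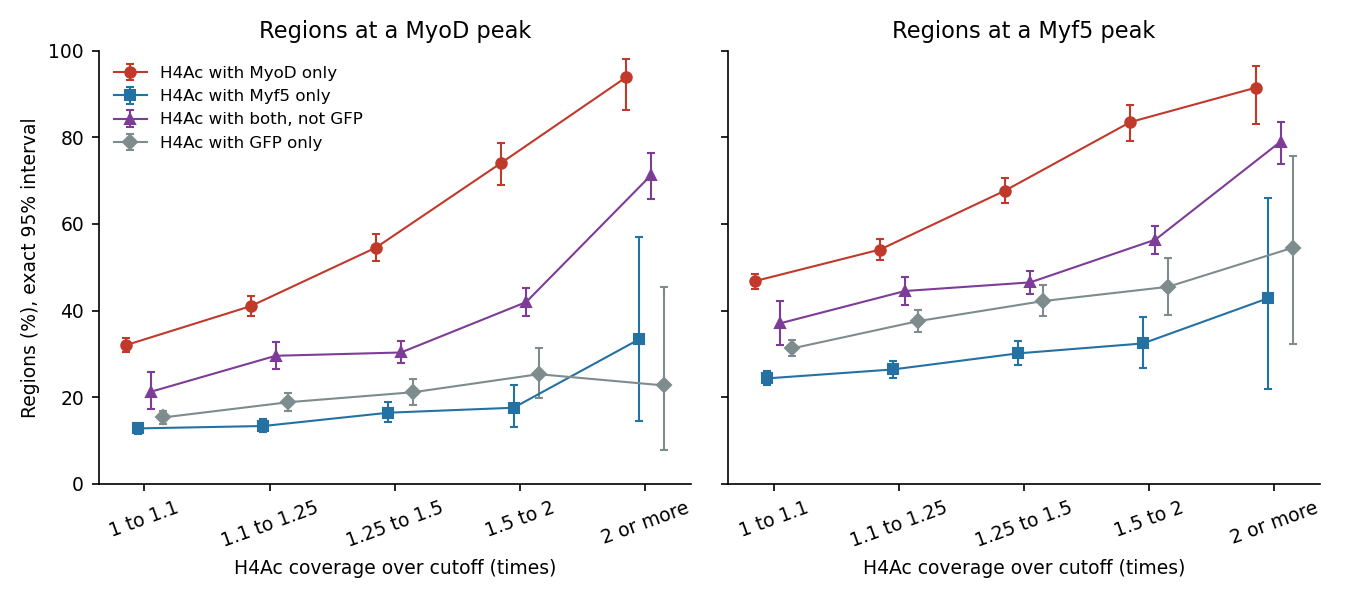
Percentage of H4Ac regions that overlap a MyoD peak (left) or a Myf5 peak (right), by maximum H4Ac coverage as a multiple of the cutoff, for regions called with MyoD only, with Myf5 only, with both factors and not GFP, and with GFP only. Points are shares and bars exact 95% intervals; MyoD-only regions go from 32.0% to 93.9% at a MyoD peak, while Myf5-only regions stay at 12.8% to 17.6% below 2 times the cutoff.

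MyoD-only regions exactly at the cutoff had factor peaks about as often as H4Ac regions in general, or less often. Of the 1417 at exactly the cutoff, 28.2% (25.9 to 30.7) had a MyoD peak, against 28.8% of all merged regions. A Myf5 peak overlapped 42.3% of them (39.8 to 45.0), against 46.3% of all. Of the 3382 under the cutoffs of both other lists, 33.6% (32.0 to 35.2) had a MyoD peak and 48.7% (47.0 to 50.4) a Myf5 peak. Both shares were above those of all merged regions. Of the 2566 that reached both, 51.9% (49.9 to 53.8) had a MyoD peak and 63.6% (61.7 to 65.4) a Myf5 peak. That comparison was chosen after seeing the data. When MyoD-only and Myf5-only regions were both held to the cutoffs of all 3 lists, the difference at MyoD peaks was 37.1 points.

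Width followed the same order. A MyoD peak overlapped 23.0% (19.0 to 27.5) of MyoD-only regions of up to 100 bp and 74.7% (63.3 to 84.0) of the 75 wider than 500 bp. Wider regions meet more peaks by their size alone, and width and H4Ac coverage over the cutoff went together, with a Spearman correlation of 0.513 across 6388 regions of 1 library.

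The MyoD peaks at these regions were strong ones. Their median coverage was 107 reads, which is the 82.8th percentile of the MyoD list (82.1 to 84.4). The median percentile was 76.7 at regions called with both factors and not GFP, 62.6 (60.9 to 64.1) at regions called in all 3 populations, 55.4 (53.2 to 59.3) at Myf5-only regions and 52.0 (49.6 to 55.4) at GFP-only regions. In 37.8% of the MyoD-only regions at a MyoD peak, that peak was in the strongest 10% of the list, against 18.5% for regions called in all 3 populations. Where several MyoD peaks overlapped a region the strongest was used.

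Myf5 peaks at the same regions were strong within their own list too. They had a median coverage of 173 reads and a median percentile of 86.5 (85.4 to 87.3), with 43.0% in the strongest 10% of that list. The median Myf5 percentile was 78.0 at regions called with both factors and not GFP, 64.7 at regions called in all 3 populations and 62.6 (60.3 to 64.7) at Myf5-only regions. Where both factors had a peak, the median difference of the MyoD minus the Myf5 percentile was -5.99 points at MyoD-only regions (-6.56 to -5.45) and -16.9 points at Myf5-only regions (-18.5 to -15.3). It was negative in each of the 5 classes compared. Percentiles of lists of unequal length do not measure the same coverage, so only the classes are set side by side.

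Seen from the factor, the share of MyoD peaks that overlapped a MyoD-only H4Ac region was 5.10% overall (2298 of 45015). With the MyoD list divided by coverage into 10 classes of about equal size, it was 1.76% (1.40 to 2.18) in the weakest and 17.7% (16.6 to 18.9) in the strongest, with 800 of 4510 peaks. The share with a Myf5-only region was 1.74% (1.38 to 2.16) in the weakest class and 2.20% (1.79 to 2.67) in the strongest, and that with a GFP-only region 1.65% and 2.06%. Regions with both factors and not GFP were in between, at 1.60% and 7.58% (6.83 to 8.40). For regions called in all 3 populations the shares were 8.15% and 19.2%. Even in the strongest class, 57.4% of MyoD peaks had no H4Ac region of any class.

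The Myf5 list gave the same order, although the H4Ac calls in question came from other cells. Of the strongest 10% of Myf5 peaks, 1228 of 9356 (13.1%, 12.4 to 13.8) overlapped a MyoD-only H4Ac region and 2.58% (2.26 to 2.92) a Myf5-only one. In the weakest class the shares were 1.101% and 1.24%, which did not differ beyond their intervals.

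**Figure D2:**
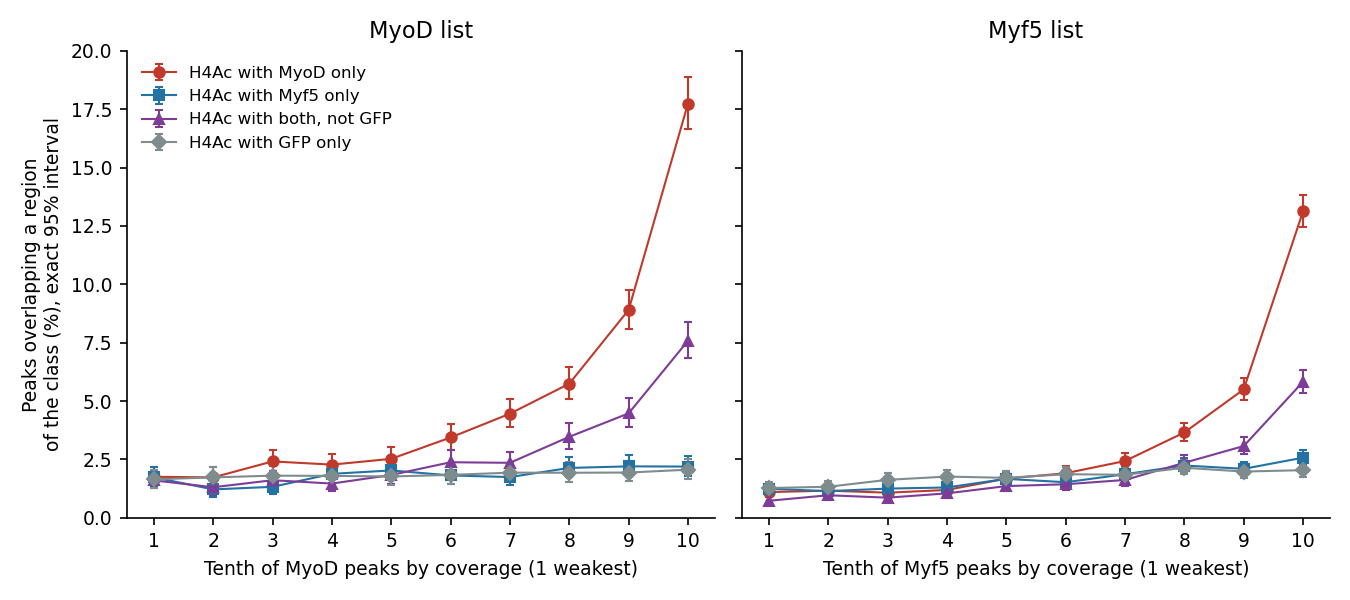
Percentage of MyoD peaks (left) and Myf5 peaks (right) that overlap an H4Ac region of each class, by class of coverage (10 classes of about equal size, 1 the weakest), with exact 95% intervals. MyoD-only regions go up to 17.7% of the strongest MyoD peaks and 13.1% of the strongest Myf5 peaks, while Myf5-only and GFP-only regions stay below 3% throughout.

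Sorted the other way, the class of an H4Ac region changed with the strength of the MyoD peak at it. MyoD-only regions made up 11.6% (11.3 to 12.0) of the H4Ac regions with no MyoD peak and 11.3% (10.4 to 12.2) of those whose MyoD peak was in the lower 50% of the list. They were 31.3% (29.5 to 33.2) of the regions with a peak between the 90th and 99th percentile. At the strongest 1% of MyoD peaks they were the most frequent class, with 205 of 440 regions (46.6%, 41.9 to 51.4), ahead of 125 regions called in all 3 populations (28.4%) and 65 with both factors and not GFP (14.8%). Only 8 of these 440 were Myf5-only. At the strongest 1% of Myf5 peaks the MyoD-only class held 334 of 743 regions (45.0%, 41.3 to 48.6) and the Myf5-only class 28 (3.77%). These counts are of regions, which can share 1 factor peak, so they are not separate observations. Counted by peak, 800 of the strongest 10% of MyoD peaks overlapped a MyoD-only region, 157 of them 2 or more. Regions called in all 3 populations overlapped 864 of the same strongest 10%.

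H4Ac coverage of the MyoD-only regions went with the strength of MyoD in a loose way. At least 1.5 times the cutoff was reached by 4.49% (2.87 to 6.66) of those at a MyoD peak of the lower 50%, 10.2% from the 50th to the 90th percentile, 17.2% from the 90th to the 99th, and 23.4% (17.8 to 29.8) above. Without a MyoD peak it was reached by 2.39% (1.92 to 2.92). Across the 2615 regions at a MyoD peak the Spearman correlation of the 2 coverages was 0.201, a weak relation given only as a description.

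At a MyoD peak, most MyoD-only regions did not cover its centre. They were narrow against these peaks, at a median of 186 bp, and narrow regions often miss a centre by their size alone. Whether their position differed from a random placement in the peak was not tested. The distance between the 2 centres had a median of 228 bp (219 to 235), in MyoD peaks of 903 bp median width, and 69.9% of the MyoD-only regions at a MyoD peak lay wholly inside it. The MyoD centre was inside the region in 20.8% (19.2 to 22.4). Counted over both sides, the share of regions covering a position went up to 24.1% at 150 bp from the centre and down to 8.70% at 500 bp. At the strongest 10% of MyoD peaks the shares were 18.0% at the centre and 23.8% at 150 bp. Myf5-only regions had a like profile, with 23.8% at the centre and 27.2% at 150 bp. Regions called in all 3 populations were wider and covered the centre in 48.7% and the position at 150 bp in 49.9%. The centre is the midpoint of the authors' peak and not a summit, which the lists do not give.

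**Figure D3:**
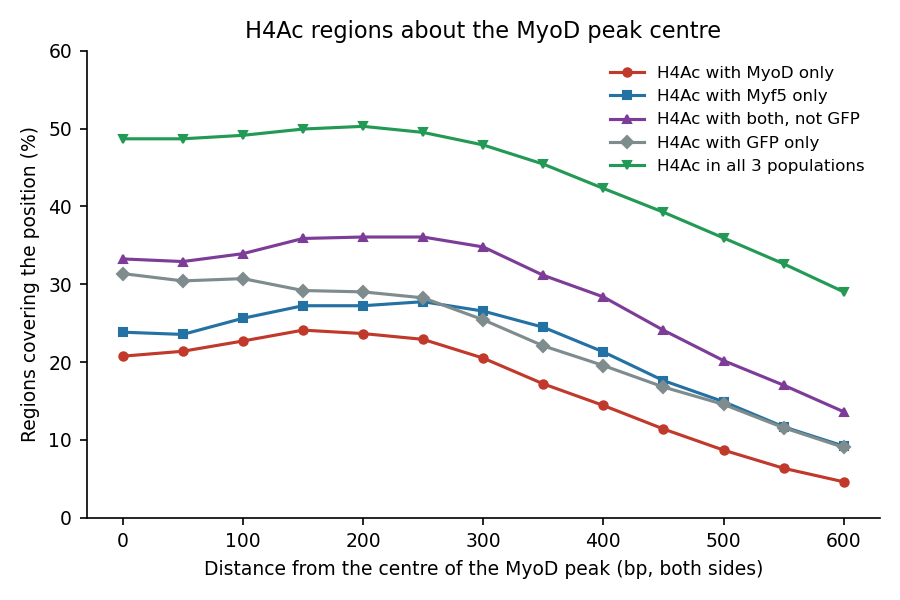
Percentage of H4Ac regions at a MyoD peak that cover a position at the given distance in bp from the peak's midpoint, counted over both sides, for 5 classes of H4Ac region. MyoD-only regions cover the midpoint in 20.8% and the position at 150 bp in 24.1%; the wider regions called in all 3 populations lie higher at all distances plotted.

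Some MyoD peaks held more than 1 such region. Of the 2298 MyoD peaks with a MyoD-only region, 292 (12.7%) had 2 or more, and in 176 of those the regions lay on both sides of the centre. In addition, 664 of the 2298 (28.9%) also overlapped an H4Ac region of another class. At 454 (19.8%, 18.1 to 21.4) that was a region called with GFP, and at 557 (24.2%) a region called with Myf5. The absence of an H4Ac call in the other cells therefore holds for the region itself and not always for the whole MyoD site.

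MyoD-only regions fell into those beside H4Ac of the other cells and those that stood apart from it. The gap to the nearest H4Ac peak of cells with Myf5 or GFP had a median of 2738 bp. It was at most 1 kb for 2718 regions (42.5%) and over 5 kb for 2804 (43.9%). A MyoD peak overlapped 1339 of the regions that stood apart (47.8%, 45.9 to 49.6). It overlapped 924 of those within 1 kb of H4Ac of the other cells (34.0%, 32.2 to 35.8). The difference was 13.8 points (11.2 to 16.3). It was 8.94 points with a MyoD peak within 500 bp and 2.93 points (1.47 to 4.39) with the MyoD centre inside the region. At Myf5 peaks the difference was 11.7 points (9.11 to 14.3). Regions that stood apart from H4Ac of the other cells could still lie near other H4Ac of cells with MyoD. Of 2118 regions with no other H4Ac peak of any list within 5 kb, 42.3% (40.2 to 44.4) had a MyoD peak. The share of all MyoD-only regions was 40.9%. Median H4Ac strength lay between 1.09 and 1.11 times the cutoff in the 6 classes of gap.

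**Figure D4:**
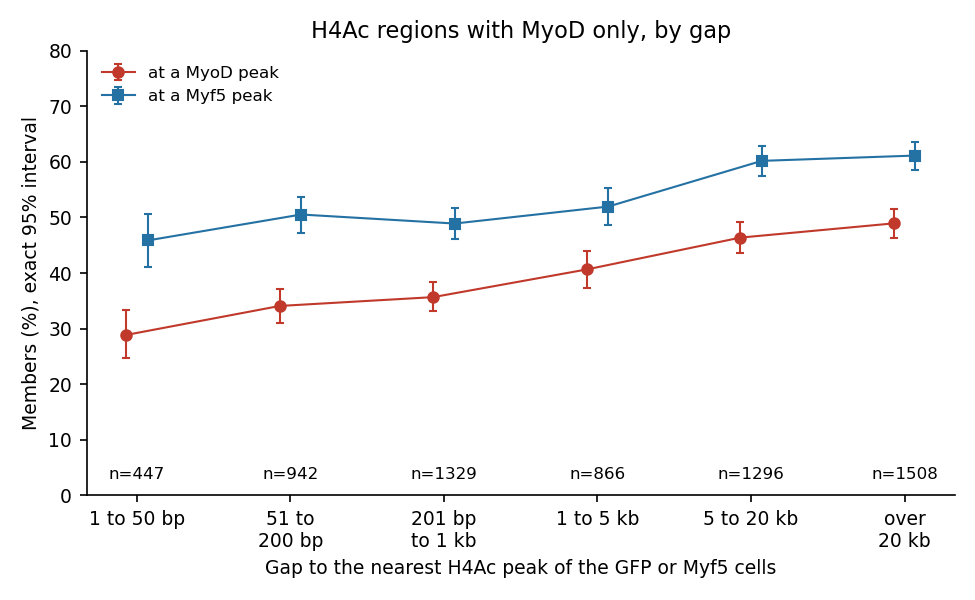
Percentage of MyoD-only H4Ac regions that overlap a MyoD peak or a Myf5 peak, by the gap to the nearest H4Ac peak of cells with Myf5 or GFP, with exact 95% intervals and the number of regions in each class. The share at a MyoD peak is 28.9% at gaps of up to 50 bp and 48.9% at gaps over 20 kb.

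Neighbouring MyoD-only regions were more often at MyoD. Another MyoD-only region lay within 1 kb of 1256 (19.7%), and of these 58.4% (55.7 to 61.2) had a MyoD peak, against 40.9% of all MyoD-only regions. Since neighbours can share 1 MyoD peak, they are not separate observations. By windows of 100 kb, 2931 windows held 1 such region, and the fullest held 10, on chromosome 12 at 74300001 to 74400000. There, 7 of the 10 were at a MyoD peak and 8 at a Myf5 peak. Of the 3 windows with 8, the one on chromosome 1 at 165200001 to 165300000 had none at either factor's peak. Nor had the one on chromosome 10 at 117100001 to 117200000. Both windows held many merged H4Ac regions, 42 and 33, counted over all classes together. The window on chromosome 7 at 118200001 to 118300000 had 3 of 8 at a MyoD peak. A window on chromosome 1 at 178700001 to 178800000, with 1 of 7 at MyoD, was the first of 10 windows with 7.

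The 12 MyoD-only regions with the highest H4Ac coverage over the cutoff all overlapped a MyoD peak, and 9 of them a Myf5 peak. Ranked first was a region on chromosome 6 at 30578428 to 30579368, which was also the widest, with 91 reads at a cutoff of 22 and a control coverage of 6. Its MyoD peak had a coverage of 154 and its Myf5 peak 275. The nearest H4Ac peak was 6.95 kb away in cells with Myf5. On chromosome 2 at 148558301 to 148558545, a region of 245 bp reached 82 reads at a cutoff of 22, under a MyoD peak of 528 reads and a Myf5 peak of 1187. The nearest H4Ac peak of the other cells was 19.3 kb away.

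Other regions of these 12 carried both factors at a range of strengths. On chromosome 9 at 117322117 to 117322452, H4Ac reached 67 reads at a MyoD peak of 132 and a Myf5 peak of 318. On chromosome 3 at 85392858 to 85393164 it reached 59 reads with 116 and 149. A region on chromosome 12 at 109907094 to 109907462 had 67 reads of H4Ac, 192 of MyoD and 448 of Myf5. Of the chromosome 19 pair, the region at 46261030 to 46261217 had 58 reads of H4Ac, 314 of MyoD and 705 of Myf5. The other, at 45004740 to 45005230, had 61, 478 and 753, but an H4Ac peak of cells with GFP lay only 17 bp away. On chromosome 1 at 50993324 to 50993675 the values were 52, 159 and 436.

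The 3 without a Myf5 peak had raised control or mock coverage. They were the region on chromosome 7 at 53633753 to 53634390 (H4Ac 93 reads, MyoD 169), that on chromosome 13 at 12956670 to 12957510 (62 and 992) and that on the X chromosome at 123302912 to 123303110 (54 and 39). Their control coverages were 16, 16 and 28, against a median of 4, and the last exceeds its own H4Ac cutoff of 19. The chromosome 13 and X regions also met peaks of the Myf5 mock, of 38 and 80 reads. In all, 11 MyoD-only regions overlapped a Myf5 mock peak, none of which had a Myf5 peak, and 0 overlapped a MyoD mock peak. The part of this signal in the H4Ac and MyoD values of the 3 regions was not tested. Without the regions at mock peaks, the MyoD difference from Myf5-only regions was 27.1 points, as with them.

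**Figure D5:**
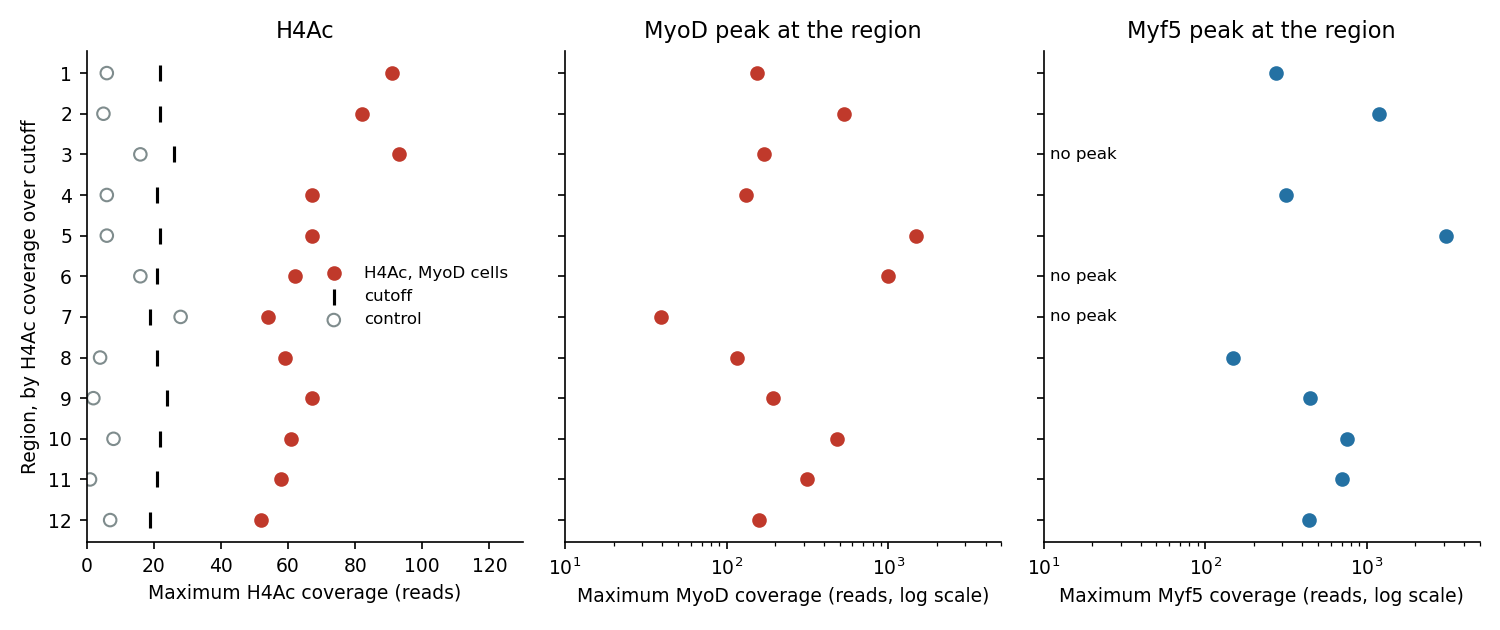
The 12 MyoD-only regions with the highest H4Ac coverage over the cutoff, from the first at the top: maximum H4Ac coverage with its cutoff and control coverage (left, reads), and the coverage of the MyoD peak (middle) and Myf5 peak (right) at the region (reads, log scales). All 12 have a MyoD peak, and the 3 marked as having no Myf5 peak have control coverages of 16 to 28.

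The 5 MyoD-only regions under the strongest MyoD coverage lay at 3 MyoD peaks. The MyoD peak of 1479 reads on chromosome 12 at 113089460 to 113090968 held 3 MyoD-only regions, at 113089666 to 113090067 (H4Ac 67 reads), 113090245 to 113090586 (39 reads) and 113090925 to 113091210 (24 reads). The nearest H4Ac peak of the other cells was 2.46 kb from the first of them. On chromosome 10 at 70755332 to 70755630 a region of 52 H4Ac reads lay at MyoD and Myf5 peaks of 1379 and 2287 reads. On chromosome 4 at 106650053 to 106650605 a region of 54 H4Ac reads lay at peaks of 1053 and 2291 reads, 0.211 kb from an H4Ac peak of cells with Myf5. Among the widest, regions on chromosome 10 at 51701684 to 51702623 (940 bp, 40 H4Ac reads) and chromosome 13 at 55272567 to 55273446 (880 bp, 40 reads) had MyoD coverages of 274 and 214. A region on chromosome 7 at 52242739 to 52243568 was 830 bp wide at only 1.13 times its cutoff, with a MyoD coverage of 85.

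A MyoD peak without a Myf5 peak was found at 47 of 5978 MyoD-only regions under 1.5 times the cutoff, at 2 of 328 from 1.5 to 2 times and at 3 of 82 above. The last 3 are the regions with raised control or mock coverage. The nearest Myf5 peak was 407 bp from the chromosome 7 region, 64798 bp from the chromosome 13 region and 2503645 bp from the X region. After these 3, the strongest were on chromosome 3 at 97831895 to 97832163 (34 H4Ac reads, MyoD 79) and chromosome 7 at 118245267 to 118245433 (29 and 32). A Myf5 peak was 21 bp and 29 bp away from these 2. Of the 52 regions of this pattern, 5 overlapped a Myf5 mock peak. Their MyoD peaks had a median coverage of 63, against 109 at regions with both factors.

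Of the 920 MyoD-only regions with a Myf5 and no MyoD peak, 32.2% had a MyoD peak within 500 bp and 56.8% within 5 kb. Their Myf5 peaks were of middling strength in the Myf5 list, with a median coverage of 51 at a median percentile of 45.6, against 238 reads and 91.5 where both factors were present. The strongest in H4Ac was on chromosome 4 at 56432221 to 56432516 (47 H4Ac reads, Myf5 51), 4476 bp from a MyoD peak. The next, at 14445050 to 14445416 of chromosome 16, had 40 H4Ac reads, a Myf5 peak of 36 reads and a MyoD peak 87 bp away. The region at 61540484 to 61541070 of chromosome 18 had 39 reads, a Myf5 peak of 711 and a MyoD peak 39 bp away. At 163500078 to 163500491 of chromosome 2 there were 37 reads, a Myf5 peak of 406 and a MyoD peak 55 bp away, and at 48551576 to 48551858 of chromosome 6 also 37 reads, a Myf5 peak of 424 and a MyoD peak 57 bp away.

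Of the regions with neither factor, the strongest in H4Ac lay beside H4Ac of the other cells. On chromosome 2 at 141413009 to 141413205 H4Ac reached 45 reads, 67 bp from an H4Ac peak of cells with Myf5 and 68599 bp from the nearest MyoD peak. On chromosome 1 at 90175529 to 90176127 it reached 46 reads, with a control coverage of 19 and a Myf5 mock coverage of 40. Its nearest Myf5 peak was 37164 bp away. The region at 103196150 to 103196354 of chromosome 12 had 48 reads and a Myf5 peak 85 bp away, with MyoD 32300 bp away. At 15141168 to 15141325 of chromosome 4 there were 43 reads, with a Myf5 peak 82 bp and a MyoD peak 128 bp away. At 56097120 to 56097422 of chromosome 10 there were 40 reads, with the nearest Myf5 peak 15316 bp away. All 5 were within 0.401 kb of an H4Ac peak of another population. The gap of the 2853 regions of this pattern had a median of 1.29 kb, against 5.57 kb where both factors were present.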

How the data were processed

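Of 10 samples, 7 had a deposited peak list and 3 were inputs with no list used here. The submitters' processing notes name CASAVA 1.8.2, BWA 0.7.5 and, with no role, mm9 and hg19. The lists hold 19 mouse autosomes and the X chromosome, and peaks on chromosome 1 end as late as 197068167, so positions were read as mm9. Not given in the sources used here are the peak caller, how replicates were joined and which control the H4Ac lists used. Per the file headers, the authors gave each peak's width, its maximum coverage (signal, in whole reads, with no scaling to depth named), a coverage cutoff for 1 of 5 GC bins and a p-value. Control coverage and control p-value are deposited too and were treated as a score, since some control p-values exceed 1; 1 placeholder value was treated as missing.

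Lists were compared by overlap of at least 1 bp, and coverage was ranked within a list only. A merged region took the values of its peak with the highest coverage over cutoff. Shares have exact (Clopper-Pearson) intervals, differences of shares Newcombe score intervals and medians order-statistic intervals, at 95%. Overlap counting was checked against simulated lists of well separated regions with known overlap. Those lists held no near misses, so the edges of the overlap rule were not checked. Named regions are the 12 highest by H4Ac coverage over cutoff, 5 each by factor pattern, width and MyoD coverage, and the 5 fullest windows of 100 kb. A part of that rule on regions made of most H4Ac peaks named none. Genes were to be named but were not, since only an annotation of a different build was used here. The regions, lists and tests were chosen with earlier results of these data known. Alternatives were other merging and overlap rules, higher thresholds, lists of equal length, the stronger part of each factor list, removal of mock regions or the X chromosome, and reweighting by GC bin or H4Ac strength. Software was Python 3.11.15 with pandas 2.3.3, numpy 2.4.6, matplotlib 3.10.9 and scipy 1.17.1.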

Additional observations from a re-analysis of the deposited data

How the results depend on the processing

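Of 89 alternatives of the 6 differences between shares, 88 kept their direction and an interval without 0. The exception was the MyoD share of MyoD-only regions minus that of regions with both factors and not GFP, at -3.32 points (-4.57 to -2.10) with the peak centre inside the region; the compared regions are wider. Reweighted to the H4Ac strength of MyoD-only regions it was 14.3 points. The strengths are not the same measure. A region with both factors took its highest value over both lists, and a MyoD-only region had a single peak. The difference from regions called in all 3 populations was not among the 6 and was not run under these alternatives. The number of MyoD-only regions was 3209 with merging across 1000 bp, 3252 with at least 125% of the cutoff in all lists, 4127 with H4Ac lists of equal length, 1411 with that threshold on the regions alone and 2566 at the cutoffs of all 3 lists. In the same order, the share at a MyoD peak was 43.9%, 49.0%, 46.7%, 61.4% and 51.9%, and at a Myf5 peak 56.8%, 63.5%, 59.0%, 72.8% and 63.6%. With a peak within 500 bp the shares were 49.95% (MyoD) and 64.0% (Myf5), in a 500 bp window about the centre 44.9% and 58.7%, with the peak centre inside 8.52% and 10.9%, with the stronger part of each factor list 32.9% and 45.1%, and in the window at all 3 cutoffs 55.2% and 66.7%. With the Myf5 list held to the length of the MyoD list, the Myf5 share was 44.7%. The median MyoD percentile was 85.2 with equal H4Ac lists, 88.8 at 125% of the cutoff in the regions, 81.5 within 500 bp, 79.9 with the centre inside and 87.8 at all 3 cutoffs. The uses of all 3 cutoffs were chosen after seeing the data. The gap difference with merging across 1000 bp, and the H4Ac strength difference at 125% in all lists, could not be given. No paired analysis was possible because each group had 1 list. Regions near the cutoff limit what these lists can show: a region missing from a list may be under its cutoff, and read depth is unknown.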
